A study of Mus musculus with 23 samples.

Results

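The 10 neutrophil and granulocyte genes described here were S100a8, S100a9, Csf3r, Retnlg, Ltf, Camp, Ngp, Mmp8, Mmp9 and C5ar1. They were picked by name, by matching the mouse gene symbols of the 47643 Ensembl genes measured in PyMT tumors, and all 10 were found. Each was read in 23 tumor libraries that fell into 5 groups. The matching used names only and no measured value, but the members were chosen with earlier results of these data known.

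PyMT mice carry the polyoma virus middle T oncoprotein, an oncogene that gives rise to mammary carcinomas; which promoter drives it is not stated in the sources used here. All tumors came from female mice with this transgene on a C57BL/6 background. The first experiment used PyMT WT mice with intact IL-38, a cytokine of the IL-1 family, and gave 5 libraries after IgG1 isotype control (IgG) and 6 after a neutralizing antibody (anti-IL-38), with injections begun when a first tumor had reached a set size. The second experiment gave 4 libraries from PyMT WT mice with isotype IgG (WT + IgG), 4 from PyMT IL-38 KO mice with the same IgG (IL-38 KO + IgG) and 4 from PyMT IL-38 KO mice with an antibody that blocks the γδ T-cell receptor (IL-38 KO + anti-γδTCR), begun at 13 weeks of age. The isotype controls were different antibodies, human IgG1 in the first experiment and polyclonal Armenian hamster IgG in the second. In all 5 groups the antibodies were given once a week for 5 weeks. WT mice with the γδ T-cell receptor antibody were not analysed here, so the blockade was compared only on the IL-38 KO background. RNA came from dissociated whole tumors, in which fewer cells of a type and less RNA per cell cannot be told apart.

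Neutrophils are short-lived granulocytes that leave the bone marrow loaded with granules and enter inflamed tissue and tumors. S100a8 and S100a9 encode the partners of calprotectin, a calcium-binding alarmin that fills much of the neutrophil cytosol. Csf3r encodes the receptor for G-CSF, which drives granulopoiesis, and C5ar1 the receptor for the complement fragment C5a, a chemoattractant that macrophages also sense. Ltf, Camp and Ngp encode proteins of the secondary granules (the iron-binding lactotransferrin, the antimicrobial peptide cathelicidin and neutrophilic granule protein), and Mmp8 and Mmp9 encode the neutrophil collagenase and a gelatinase. Retnlg encodes a resistin-like protein of mouse neutrophils. Lactotransferrin is also a product of mammary epithelium, and several of the other genes are transcribed in monocytes and macrophages too.

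Of the 10 genes, 4 lie on chromosome 9 (Ltf, Camp, Ngp and Mmp8) and 2 on chromosome 3 (S100a8 and S100a9), while Mmp9, Csf3r, C5ar1 and Retnlg lie on chromosomes 2, 4, 7 and 16. Promoters of 300 bases (250 before and 50 after the start) were at hand for 9 of them in RefSeq, assembly GRCm38.p6, and that of Mmp9 was not among them. The C/EBP factors, which drive granulocyte genes, bind variants of the motif TTNNGCAA. On either strand this motif was present in 5 of the 9 promoters (S100a9, Retnlg, Ltf, Ngp and Mmp8), against 10.8% of 32851 mouse promoters of the same length. A match describes these letters and is not evidence of a bound site. The promoters of Mmp8, Ltf and Ngp are shown, because Mmp8 gave the largest fitted difference of the 10, Ltf the one furthest in the other direction under anti-IL-38, and Ngp was the only one with 2 matches; these 3 were picked after the values were seen. Capitals mark the matches, which start 19 bases before the start site in Mmp8, 75 before it in Ltf, and 138 and 11 before it in Ngp. All 3 sequences run 5′ to 3′ on the plus strand.
Mmp8, chr9:7558179-7558478: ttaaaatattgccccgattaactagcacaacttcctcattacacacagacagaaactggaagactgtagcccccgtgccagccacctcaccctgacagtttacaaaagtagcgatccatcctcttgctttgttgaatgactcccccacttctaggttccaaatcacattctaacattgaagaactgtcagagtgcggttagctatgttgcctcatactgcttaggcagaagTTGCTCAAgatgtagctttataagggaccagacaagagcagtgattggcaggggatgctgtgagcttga
Ltf, chr9:111019042-111019341: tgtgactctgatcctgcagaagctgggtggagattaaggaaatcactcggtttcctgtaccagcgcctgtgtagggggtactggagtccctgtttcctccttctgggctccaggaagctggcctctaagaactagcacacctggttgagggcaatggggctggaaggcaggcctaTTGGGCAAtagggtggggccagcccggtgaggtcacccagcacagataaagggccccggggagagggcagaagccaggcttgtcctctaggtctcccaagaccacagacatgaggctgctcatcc
Ngp, chr9:110419558-110419857: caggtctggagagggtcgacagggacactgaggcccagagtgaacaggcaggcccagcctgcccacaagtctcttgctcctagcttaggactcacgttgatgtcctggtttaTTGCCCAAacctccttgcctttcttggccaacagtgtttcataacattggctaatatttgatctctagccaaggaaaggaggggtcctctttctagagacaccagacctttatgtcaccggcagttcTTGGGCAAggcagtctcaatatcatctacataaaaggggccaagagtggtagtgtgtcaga

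The depth and the state of the libraries bear on every value below. Between 6273049 and 15879164 reads were counted on genes per library, and 3 reads, the upper limit taken for a count of 0, stood for 0.189 to 0.478 CPM (reads per 1000000 reads on genes). IL-38 KO + IgG replicate 4 and all 4 IL-38 KO + anti-γδTCR libraries stood apart from the other 18. They held 6273049 to 8794202 reads, against 10138353 to 15879164, and 1.31 to 1.98% of their reads fell on processed pseudogenes, against 0.0943 to 0.191%. Their column headers carry the numbers 19 to 23, and whether these mark a separate run is not stated in the labels or methods. Only the header of IL-38 KO + anti-γδTCR replicate 3 also holds the mark rep, whose meaning is not stated. That library had the fewest reads (6273049) and the largest share on processed pseudogenes (1.98%). The epithelial marker Epcam ranged from 219.6 to 1045 CPM over the 23 libraries, so each library held epithelium. Epcam was lowest in IgG replicate 5, against a median of 874.3 CPM, and this library had the most S100a8 and the least Ltf. Elf5 (28.06 CPM) and the fibroblast gene Dcn (55.09 CPM) were lowest there too, whereas Cldn3 was lowest in IgG replicate 1 (133.3 CPM). Il1f10, the gene of IL-38, had 0 reads in all 23 libraries, WT included, and the genotype could not be checked from it.

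Several defining markers of neutrophils were close to the limit of detection. Ly6g, the surface marker of mouse neutrophils, was at 0 in 20 of 23 libraries and reached at most 0.384 CPM. Cxcr2, the main chemokine receptor of neutrophils, ranged from 0 to 0.945 CPM, and the azurophil granule genes Mpo and Elane reached at most 0.505 and 0.789 CPM. Other genes known from neutrophil granules were read higher, with Prtn3 (proteinase 3) at 0.797 to 16.9 CPM and Pglyrp1 at 5.75 to 74.9 CPM over the 23 libraries. Among the 10 genes themselves, Retnlg, Camp, Ngp and Csf3r stayed at or under 3.26 CPM in every library, whereas S100a8 was counted in 31 to 2170 reads, Ltf in 178 to 8025 and Mmp8 in 0 to 7394.

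On average the alarmin genes were highest in the IgG group of the first experiment. This order of groups spans both experiments, whose isotype controls and start of treatment differed. Single libraries of S100a9 overlapped: IgG replicates 1 and 5 (3.81 and 2.75 CPM) lay below anti-IL-38 replicate 5 (5.25 CPM). S100a8 stood at 39.4, 46.9, 85.9, 50.4 and 162 CPM in the 5 IgG libraries. In the 6 anti-IL-38 libraries it ranged from 17.5 to 47.3 CPM with a median of 27.0, so that 5 of the 6 lay below every IgG library and replicate 6 lay among them. In the second experiment S100a8 stood at 35.0, 47.9, 28.6 and 21.95 CPM in WT + IgG, at 20.5, 26.9, 32.1 and 31.1 in IL-38 KO + IgG and at 11.7, 31.2, 4.94 and 24.8 in IL-38 KO + anti-γδTCR. Ordered by their medians, the groups ran from IgG (50.4) through WT + IgG (31.8), IL-38 KO + IgG (29.0) and anti-IL-38 (27.0) to IL-38 KO + anti-γδTCR (18.3 CPM), and every pair of neighbours in that order overlapped. S100a9 stood at 6.16 ± 3.06 CPM (SD, n = 5) in IgG, 4.16 ± 0.799 (n = 6) in anti-IL-38, 3.83 ± 1.30 (n = 4) in WT + IgG, 3.09 ± 2.22 (n = 4) in IL-38 KO + IgG and 2.09 ± 1.72 (n = 4) in IL-38 KO + anti-γδTCR. The number of S100a8 reads per S100a9 read, which depends on neither depth nor scaling, ranged from 3.44 to 58.7 over the 23 libraries with a median of 8.87. The highest ratio belonged to IgG replicate 5, in which S100a8 was at its maximum of 162 CPM and S100a9, at 2.75 CPM, was the lowest of its group.

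The receptor genes differed in how they varied. C5ar1 stood at 12.7, 14.4, 12.3, 10.5 and 17.2 CPM in IgG and ranged from 8.79 to 12.1 with a median of 10.3 in anti-IL-38. It stood at 8.61, 13.3, 10.5 and 8.61 in WT + IgG, at 9.43, 7.41, 11.3 and 5.80 in IL-38 KO + IgG, and at 1.62, 2.34, 1.91 and 2.96 in IL-38 KO + anti-γδTCR. The 4 libraries of the blockade lay below the other 19, and the lowest of those 19 was IL-38 KO + IgG replicate 4. Csf3r was read at 1.71 ± 0.939 CPM in IgG, 1.64 ± 0.761 in anti-IL-38, 1.77 ± 0.701 in WT + IgG, 1.86 ± 0.265 in IL-38 KO + IgG and 0.888 ± 0.231 in IL-38 KO + anti-γδTCR (SD, n = 5, 6, 4, 4 and 4).

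Among the granule genes, Mmp8 was the most uneven. It stood at 574, 401, 313, 356 and 471 CPM in the IgG libraries, and ranged from 241 to 385 CPM with a median of 267 in anti-IL-38. It stood at 292, 381, 273 and 225 CPM in WT + IgG and at 206, 198, 268 and 7.31 CPM in IL-38 KO + IgG, where replicate 4 held 63 reads against 2569 to 4259 in replicates 1 to 3. In IL-38 KO + anti-γδTCR, 3 libraries held 0 reads of Mmp8 and replicate 4 held 49 reads (5.57 CPM). Mmp8 was therefore low in each of the 5 libraries that stood apart and at 198 CPM or more in the other 18. Mmp9 was read at 15.9 ± 3.39 CPM in IgG, 12.3 ± 3.43 in anti-IL-38, 10.2 ± 4.47 in WT + IgG, 6.40 ± 1.51 in IL-38 KO + IgG and 5.30 ± 2.20 in IL-38 KO + anti-γδTCR (SD, n = 5, 6, 4, 4 and 4), and 1 WT + IgG library, replicate 2 at 16.9 CPM, lay far above the other 3 of its group.

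Ltf did not follow Mmp8. The IgG libraries gave 50.5, 165, 270.2, 114 and 13.3 CPM of Ltf, and anti-IL-38 libraries 70.8 to 613 CPM with a median of 253. It stood at 318, 204, 346 and 203 CPM in WT + IgG, at 338, 394, 216 and 209.5 in IL-38 KO + IgG, and at 351, 716, 101 and 467 in IL-38 KO + anti-γδTCR. Of the 5 groups, IL-38 KO + anti-γδTCR therefore held the library with the most Ltf and the fewest Mmp8 reads, and the IgG group held the library with the least Ltf. Camp was highest in IL-38 KO + IgG, at 1.03, 0.849, 2.46 and 1.28 CPM, against 0.957, 0.390, 0.0768 and 0.176 CPM in WT + IgG, and both ranges overlapped in 1 WT library. It was read at 0.670 ± 0.346 CPM in IgG, 0.650 ± 0.422 in anti-IL-38, where replicate 2 at 1.44 CPM lay far above the others, and 0.713 ± 0.695 in IL-38 KO + anti-γδTCR. Ngp had similarly few reads, with medians of 1.27 CPM in IgG, 0.984 in anti-IL-38, 0.438 in WT + IgG and 0.545 in IL-38 KO + IgG, and it was at 0 reads in 3 of the 4 blockade libraries. Retnlg, at 0 reads in 4 of 23 libraries, had a median of 0.224 CPM and a maximum of 2.02 CPM in IgG replicate 2.

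**Figure D1:**
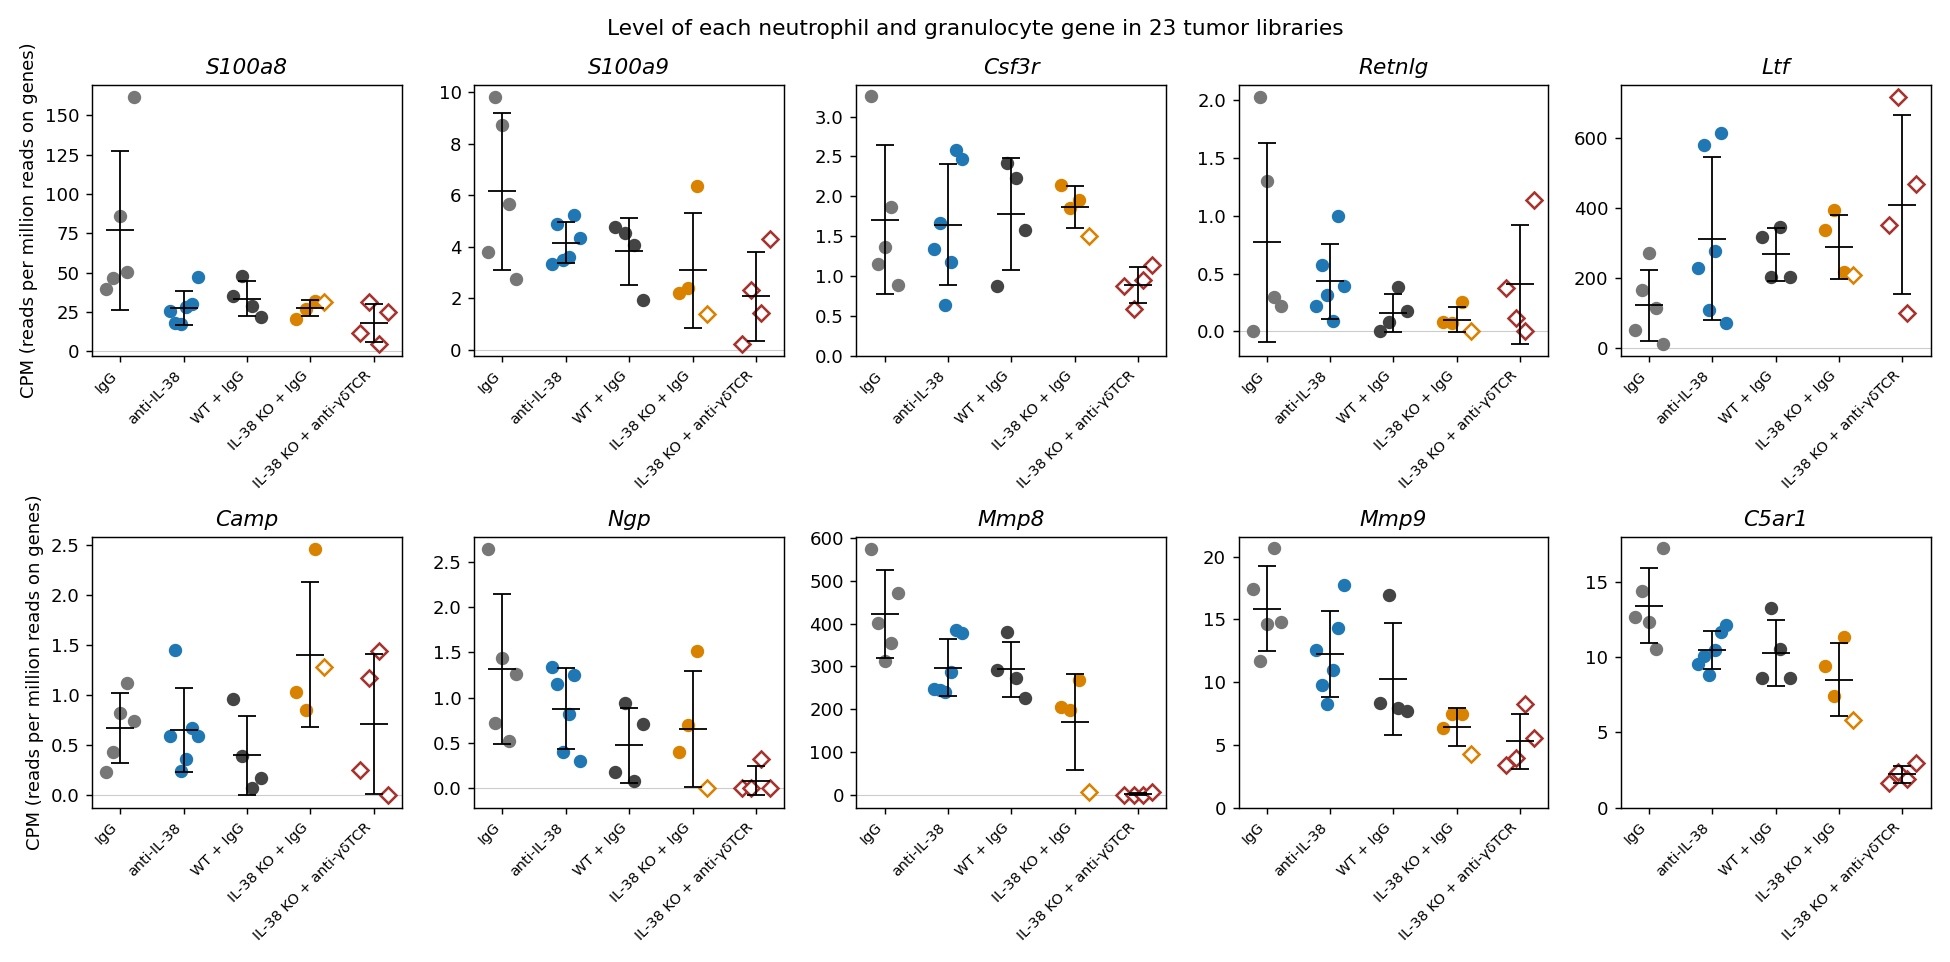
Level of each of the 10 genes in CPM (linear axes) in the 5 groups, with 1 point per library and bars for the mean ± SD; open diamonds are the 5 libraries that stood apart. S100a8 was highest in IgG replicate 5 at 162 CPM, Mmp8 was at 7.31 CPM or less in each of the 5 open diamonds, and C5ar1 was lowest in the 4 libraries with anti-γδTCR.

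The first comparison addressed whether blocking IL-38 changed the transcripts of tumors in WT mice. With anti-IL-38, S100a8 was the member furthest below the isotype control and Ltf the one furthest above it, and 9 of the 10 genes had a fold change below 0. None of the 10 passed the test. Differences were fitted with limma on log2(normalized count + 1), with Benjamini-Hochberg adjustment over the 16002 genes tested and a threshold of 0.05. The log2 fold change of S100a8 was -1.29 (SE 0.35), a 2.45-fold lower level, at an adjusted p of 0.376, and all 6 anti-IL-38 libraries lay below the IgG median. Without IgG replicate 5, the library with the most S100a8, the log2 fold change was -0.97. Mmp8 gave a log2 fold change of -0.46 (SE 0.17, limma adjusted p = 0.425), C5ar1 -0.30 (SE 0.16, adjusted p = 0.519) and Mmp9 -0.34 (SE 0.19, adjusted p = 0.537). Mmp8 and C5ar1 lay below the IgG median in 6 of 6 anti-IL-38 libraries, and Mmp9 in 5 of 6. For S100a9 the log2 fold change was -0.37 (SE 0.32), for Ngp -0.48 (SE 0.50) and for Retnlg -0.12 (SE 0.81).

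Ltf, by contrast, was above the IgG median in 5 of 6 anti-IL-38 libraries on normalized counts and in 4 of 6 on CPM, with a log2 fold change of 1.60 (SE 0.72, limma adjusted p = 0.469), or 0.95 without IgG replicate 5. The luminal epithelial markers lay on the same side: all 7 were higher in anti-IL-38, with a median log2 fold change of 0.69 and a summed level of 2261 to 4017 CPM against 1538 to 3233 CPM in IgG. The milk and secretory epithelium genes did not, with 3 of 7 higher and 4 lower and a median of -0.22. Neither median was taken without IgG replicate 5, the library with the least Epcam. The part of either list in the difference of Ltf was not tested. The fold changes of Csf3r (SE 0.41) and Camp (-0.03, SE 0.51) were close to 0. No member had groups without overlap, which 0.644% of all genes had with anti-IL-38 lower and 0.4% with anti-IL-38 higher.

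Over all genes, 0.0% passed the limma threshold in this comparison and 10.5% had an unadjusted p under 0.05, which 3 of the 10 members had (S100a8, Mmp8 and Ltf). edgeR called 0.0% of genes and no member. DESeq2, which called 75 genes (0.469%), called S100a8 (log2 fold change -1.43, adjusted p = 0.0258) and no other member, so the call of S100a8 rests on the choice of the test. Over the 9 alternatives of test, scaling and filter, the adjusted p of S100a8 ranged from 0.0258 to 0.462.

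The second comparison set tumors of IL-38 KO mice against those of WT mice, both with IgG. Camp was the member furthest above WT and Mmp8 and Mmp9 were the ones furthest below it, and none of the 9 tested members passed the test. Retnlg, with a mean normalized count under 5, was not tested. The log2 fold change of Camp was 1.88 (SE 0.66, limma adjusted p = 0.320), and all 4 KO libraries lay above the WT median, at 0.849 CPM or more. DESeq2 gave Camp no adjusted p. Mmp9 had a log2 fold change of -0.59 (SE 0.30, limma adjusted p = 0.442) with all 4 KO libraries below the WT median, and it was -0.31 without WT + IgG replicate 2. That of Mmp8 was -1.57 (SE 0.91, limma adjusted p = 0.490), but it rested on IL-38 KO + IgG replicate 4 and was -0.36 without it. S100a8 (-0.21, SE 0.25), S100a9 (-0.42, SE 0.46) and C5ar1 (-0.26, SE 0.25) were lower and Csf3r (0.17, SE 0.39), Ltf (0.13, SE 0.24) and Ngp (0.16, SE 0.99) higher by less than their standard error or little more.

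No member separated the genotypes without overlap, as 3.41% of all 16563 genes tested did with KO lower and 3.66% with KO higher. The limma threshold was passed by 1 gene (0.00604%), the predicted gene Gm10093, which is no member, and 12.1% of genes had an unadjusted p under 0.05, among them Camp alone of the members. edgeR called 0.0% of genes, and DESeq2 called 305 (1.84%) with no member among them.

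The third comparison asked what blocking the γδ T-cell receptor did on the IL-38 KO background. Mmp8 and C5ar1 were lower in the 4 tumors with the blocking antibody than in the 4 with IgG, and Ltf was the single tested member with a fold change above 0. On the normalized counts of the 8 libraries, Mmp8 stood at 1825, 1753, 2484 and 69.6 in IL-38 KO + IgG and at 0, 0, 0 and 53.9 in IL-38 KO + anti-γδTCR, so the groups did not overlap although replicate 4 of the controls came close. The fitted log2 fold change was -8.31 (SE 1.46, limma adjusted p = 0.0657), a value that depends on the pseudocount because 3 libraries were at 0. C5ar1 stood at 83.6, 65.5, 105.0 and 55.2 normalized counts in IL-38 KO + IgG and at 17, 22.9, 21.7 and 28.6 with the blockade, which gave a log2 fold change of -1.71 (SE 0.29, limma adjusted p = 0.0657), a 3.28-fold lower level. Csf3r also did not overlap, at 18.96, 16.4, 18.1 and 14.4 against 9.16, 5.72, 10.9 and 11 normalized counts (log2 fold change -0.85, SE 0.38, limma adjusted p = 0.231). Thus 3 of the 8 tested members did not overlap with the blockade lower, as 4.98% of the 16481 genes tested did, and no member did so with the blockade higher, as 4.57% did.

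With all 8 libraries no member passed the limma threshold, which 0.0% of genes passed; 21.7% of genes had an unadjusted p under 0.05, as Mmp8 and C5ar1 did. edgeR also called 0.0% of genes, with an adjusted p of 0.0911 for both Mmp8 and C5ar1, and DESeq2 called 1033 genes (6.27%), among them Mmp8 (adjusted p = 0.0398) and C5ar1 (adjusted p = 1.95e-04). Over the 9 alternatives the adjusted p ranged from 0.0398 to 0.124 for Mmp8 and from 1.95e-04 to 0.124 for C5ar1. The limma calls turned on 1 control library. Without IL-38 KO + IgG replicate 4, limma called 2357 of 16480 genes (14.3%), and Mmp8 fell by 9.52 on the log2 scale (SE 1.21, limma adjusted p = 2.51e-04) and C5ar1 by 1.86 (SE 0.31, limma adjusted p = 0.00164). The other 6 tested members did not pass there: Csf3r gave -0.92 (SE 0.40), Camp -1.27 (SE 0.92), S100a9 -0.92 (SE 0.75), S100a8 -0.64 (SE 0.49), Mmp9 -0.30 (SE 0.35) and Ltf 0.30 (SE 0.49). Ngp and Retnlg, with mean normalized counts under 5, were not tested in either fit. The 4 libraries with the blockade are among the 5 that stood apart, so with replicate 4 left out the blockade and that difference cannot be told apart. With all 8 libraries they are confounded in large part too, because replicates 1 to 3 of the controls did not stand apart. The fold changes and the lack of overlap given above share this limit. Within the 5 there was 1 control, which allows no test. Its Mmp8, C5ar1 and Csf3r lay above the 4 libraries with the blockade, as the lack of overlap already implies, and its S100a8 (296 against 56.1 to 306 normalized counts), S100a9 (13.3 against 2.62 to 41.8) and Mmp9 (40.9 against 35.3 to 94.1) lay within their range.

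Most macrophage markers moved with Mmp8 and C5ar1 in this comparison, with 7 of 8 lower and C1qa higher (median log2 fold change -1.11). Without IL-38 KO + IgG replicate 4, C1qa (-0.09, SE 0.16), C1qc (-0.56, SE 0.18) and Mrc1 (-0.58, SE 0.24) were not called. The other 5 were called lower in that fit, as 4.85% of all genes were. The summed level of all 8 was 671 to 1094 CPM with the blockade and 873 CPM in IL-38 KO + IgG replicate 4. It was 1635 to 2199 CPM in the other 3 controls and 1635 to 3303 CPM in the 18 libraries that did not stand apart. Csf1r, the receptor that sustains macrophages, ranged from 96.9 to 179 CPM with the blockade, stood at 157 in replicate 4 and ranged from 370.1 to 552 CPM in the other 3 controls. None of the 8 macrophage markers was at 0 in any group. T-cell markers did not move that way, at 7.01 to 12.2 CPM with the blockade and 4.20 to 14.9 CPM in the controls. The part of the macrophage markers in the differences of Mmp8 and C5ar1 was not tested.

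**Figure D2:**
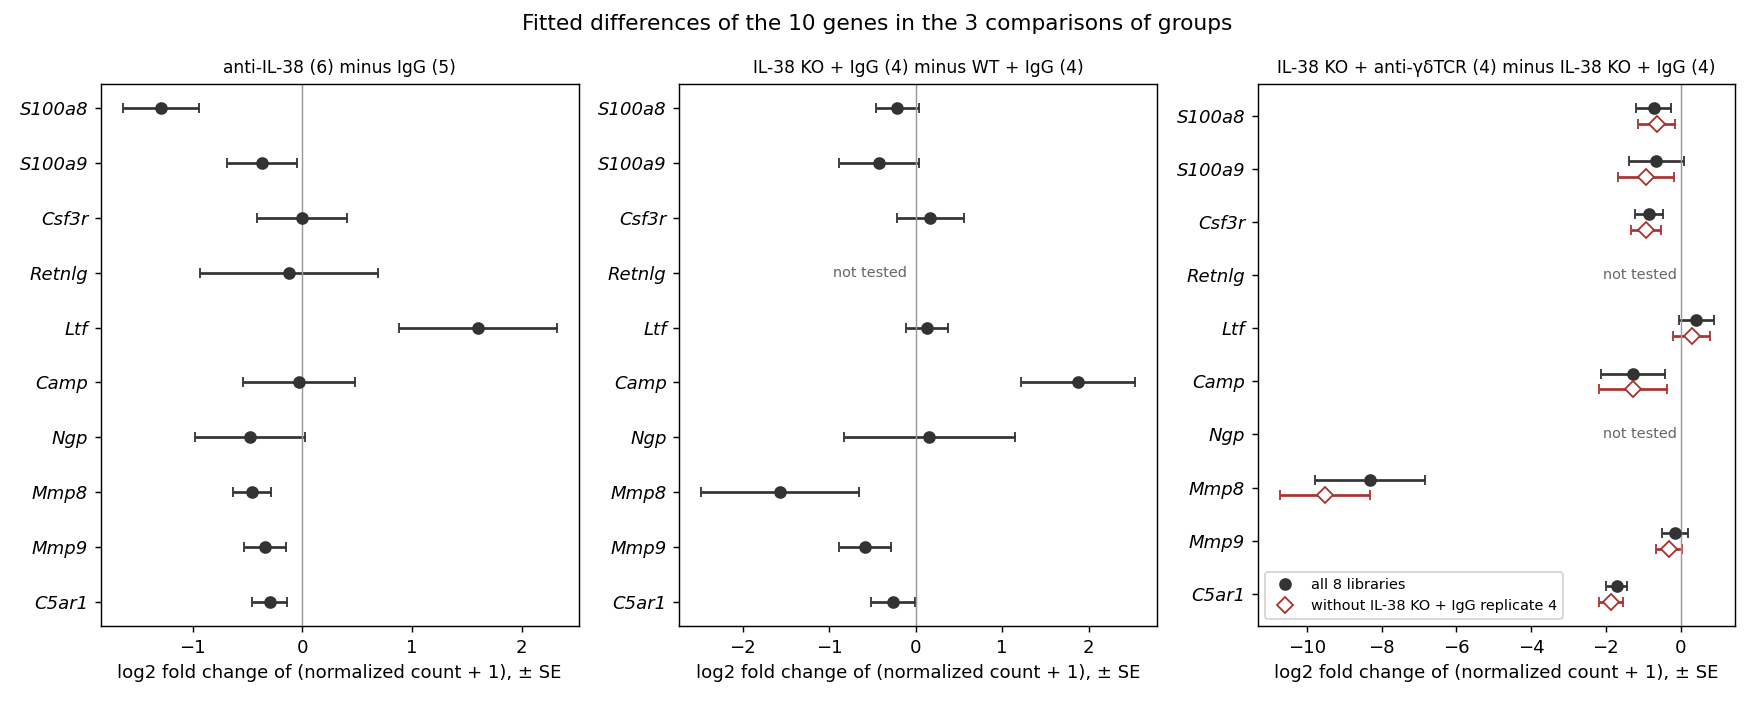
Fitted log2 fold change of log2(normalized count + 1) ± SE of the 10 genes in the 3 comparisons, with the number of libraries in parentheses; open diamonds in the right panel leave out IL-38 KO + IgG replicate 4, and the 3 panels have different axes. Mmp8 (-8.31) and C5ar1 (-1.71) lie furthest below 0 in the right panel, S100a8 (-1.29) in the left one, and Camp (1.88) lies furthest above 0 in the middle one. All libraries with anti-γδTCR are among those that stood apart, so the right panel does not show the blockade alone.

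When both ways of losing IL-38 were pooled (10 libraries of anti-IL-38 and IL-38 KO + IgG against 9 controls), 7 members were lower and 3 higher, and none passed the test. S100a8 was again the member with the smallest p, with a log2 fold change of -0.81 (SE 0.29, limma adjusted p = 0.355), and 9 of the 10 libraries lay below the control median. Mmp8 gave -0.87 (SE 0.52), or -0.35 without IL-38 KO + IgG replicate 4, Mmp9 -0.40 (SE 0.26), Ltf 0.94 (SE 0.50), or 0.53 without IgG replicate 5, and Camp 0.78 (SE 0.43). Of all 16352 genes, 0.0% passed with limma and 10.5% had an unadjusted p under 0.05, S100a8 alone among the members; edgeR called 0.00612% and DESeq2 0.428% of genes, with no member among them. This comparison reuses the libraries of the first and second, so its values are not further evidence for theirs. The controls pooled here had received different isotype antibodies.

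Whether the antibody and the knockout differed in their effect was tested directly, as the antibody effect minus the knockout effect over 19 libraries. No member passed, while 0.00612% of genes did. Camp had the smallest p of the members (log2 difference -1.91, SE 0.81, limma adjusted p = 0.597), as it was higher in KO than in WT tumors but not in anti-IL-38 against IgG. S100a8 followed with -1.08 (SE 0.49, limma adjusted p = 0.620), since its difference was larger with the antibody. For Ltf the difference was 1.47 (SE 0.94), or 0.83 without IgG replicate 5, and for Mmp8 1.12 (SE 0.91), or -0.10 without IL-38 KO + IgG replicate 4.

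Across tumors, the 10 genes varied together only in part. After the mean of each group was removed, Pearson's r of log2(normalized count + 1) over 19 libraries ranged from -0.454 (S100a8 and Ltf) to 0.658 (Ngp and Mmp8) over the 45 pairs, with a median of 0.194 and 10 pairs below 0. Without IL-38 KO + IgG replicate 4 the median was 0.132 and the pair of Ngp and Mmp8 gave 0.237, so its value rested on that library. These values describe the libraries and were not tested.

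The relations of 6 pairs (members with each other, or Ltf with Lcn2) and of 3 members with Csf1r, added after values had been seen, were tested as a family of 9 over the 19 libraries, with 100000 permutations each. S100a8 and S100a9, whose proteins form 1 complex, gave r = 0.330 and rho = 0.446 (permutation p = 0.168 and 0.0569, adjusted 0.377 and 0.128), 0.0765 in the neutralization experiment and 0.552 in the genotype experiment alone, and 0.498 without the 2 libraries farthest from the median. With group means removed, as in the values of the 45 pairs, r of S100a8 with S100a9 was 0.007. None of the other 5 planned pairs passed either: Camp with Ngp gave r = 0.0889, Ltf with Ngp -0.166, Ltf with Lcn2 0.246, Csf3r with C5ar1 0.0598 and Csf3r with Mmp9 0.237 (permutation p adjusted to between 0.492 and 0.809). In the same order rho was -0.00175, -0.103, 0.209, 0.121 and 0.242 (adjusted to between 0.570 and 0.997). Within each experiment, or without the 2 farthest libraries, r of these 5 pairs lay between -0.337 and 0.587.

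Mmp8 followed Csf1r closely. Its r was 0.924 and rho 0.974 (permutation p = 1e-05 for both, the smallest that 100000 permutations can give, adjusted 4e-05 and 9e-05), and r was 0.911 in the neutralization experiment alone, 0.945 in the genotype experiment alone, 0.949 without the 2 farthest libraries and 0.945 without IL-38 KO + IgG replicate 4. C5ar1 was related to Csf1r too, with r = 0.863 and rho = 0.821 (permutation p = 1e-05 and 3e-05, adjusted 4e-05 and 1.3e-04), r of 0.721 and 0.832 in the 2 experiments alone and 0.819 without the 2 farthest libraries. Its rho within the experiments was 0.6 and 0.643 (adjusted permutation p = 0.169 and 0.173), which did not pass. S100a8 gave r = 0.422 and rho = 0.625 (permutation p = 0.0755 and 0.00518, adjusted 0.226 and 0.0155) with 0.456 and 0.309 in each experiment alone and 0.408 without the 2 farthest libraries, and its r was 0.586 (adjusted permutation p = 0.0314) without IL-38 KO + IgG replicate 4. The permutation tests took all 19 libraries as exchangeable, so differences between groups are part of these r. Csf1r was picked after values were seen, and the adjustment over 9 pairs does not cover that choice. The p-values with Csf1r are therefore smaller than a choice made beforehand would warrant and serve as a description.

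**Figure D3:**
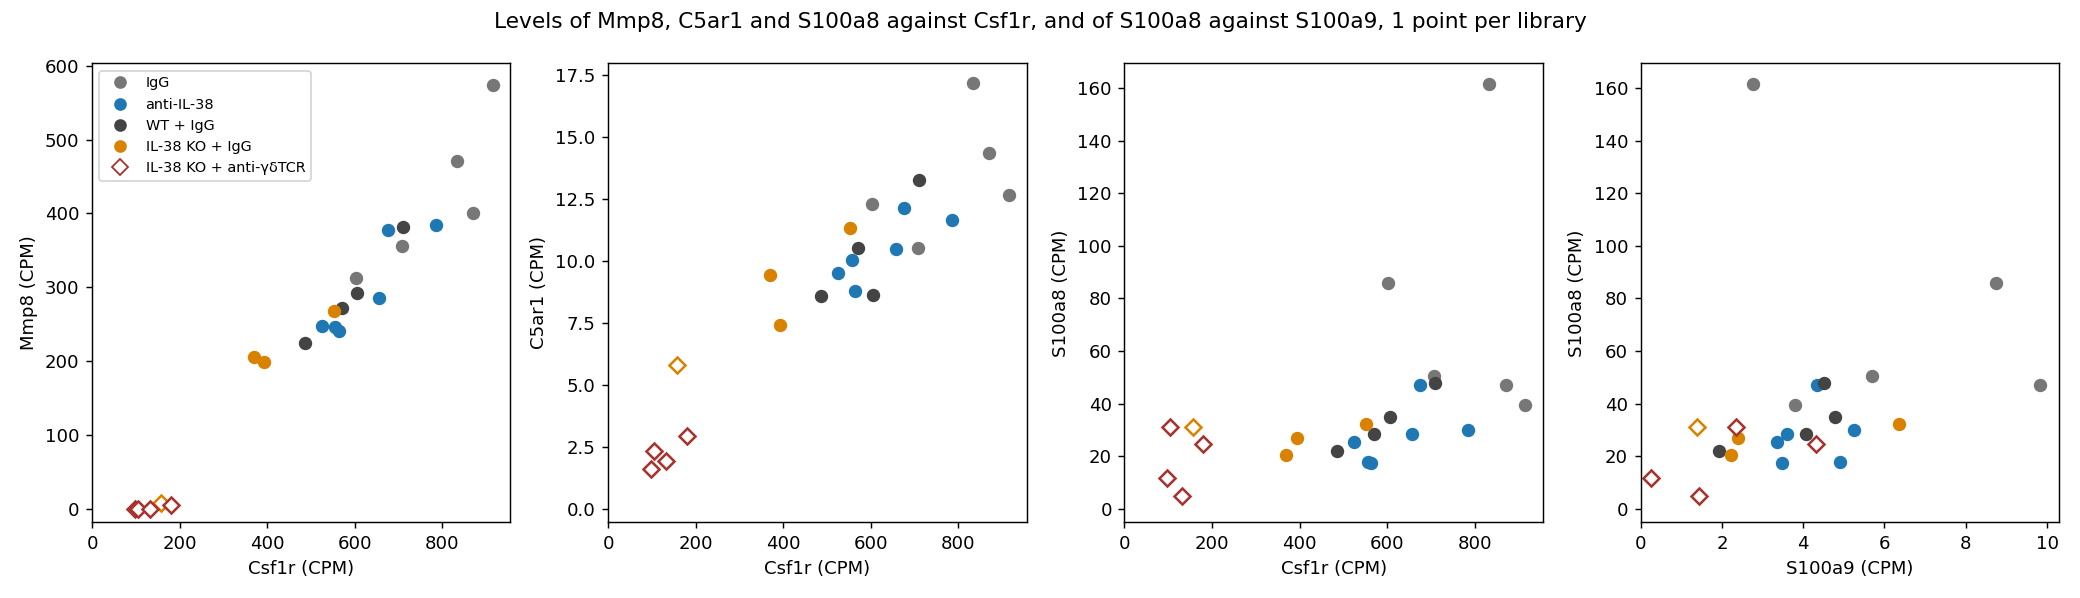
Level in CPM (linear axes) of Mmp8, C5ar1 and S100a8 against Csf1r, and of S100a8 against S100a9, with 1 point for each of the 23 libraries; open diamonds are the 5 libraries that stood apart. Mmp8 and C5ar1 rise with Csf1r over the filled points, and the highest S100a8 point, at 162 CPM, has 2.75 CPM of S100a9.

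The genes whose pattern was most like the mean of the 10 members, by Pearson's r over the same 19 libraries with group means removed, were S100a1 (0.858), Hhex (0.843), Was (0.816), Anxa5 (0.815), Rap2b (0.815), Bcl2a1a (0.809), Ptpro (0.805), Dhps (0.801), Ripk1 (0.801) and Matk (0.796). Of these 10, S100a1 (0.795), Anxa5 (0.781) and Rap2b (0.829) were also among the 10 nearest without IL-38 KO + IgG replicate 4. No gene of the companion neutrophil list was among them.

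Other genes known from neutrophils gave a mixed picture. Which cells made their RNA cannot be told in whole tumors, and Chil3 is also in the monocyte list. Of 38 further neutrophil genes (receptors, granule and cytosolic proteins), 26 passed the filter on low values under anti-IL-38, where 18 were lower and 8 higher with a median log2 fold change of -0.22, against 0.00 over all 16002 genes, and 0 passed the limma threshold. The C-type lectin receptor gene Clec4e (-0.81, SE 0.25), Acod1, which makes itaconate (-0.79, SE 0.25), and Clec4d (-0.39, SE 0.17) had the smallest p among the lower ones, and Steap4 (1.24, SE 0.46), Lcn2, the iron-sequestering lipocalin (0.61, SE 0.30), and Lrg1 (0.67, SE 0.50) among the higher ones. In IL-38 KO against WT tumors 13 of 26 were lower and 13 higher (median -0.09, against 0.01 over all genes), with 0 past the threshold. Pglyrp1, a granule protein that binds bacterial walls, was at 23.1 to 37.3 CPM in IL-38 KO + IgG and 7.39 to 23.04 CPM in WT + IgG (log2 fold change 1.35, SE 0.32, limma adjusted p = 0.210). Under the blockade 16 of 22 were lower (median -0.50, against 0.02), 0 passed with all 8 libraries, and without IL-38 KO + IgG replicate 4, 7 of 21 were called lower and 0 higher. In that fit, in which the blockade cannot be told apart from the state of the libraries, 4.85% of all 16480 genes were called lower and 9.45% higher. Clec4d was at 0.319 to 3.75 CPM with the blockade, at 2.55 in replicate 4 and at 53.8 CPM or more in the 18 libraries that did not stand apart.

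Genes of azurophil granules and of granulopoiesis numbered 11, of which 6, 6 and 5 were tested in the 3 comparisons, with medians of 0.18, 0.21 and -0.53 and 0 past the limma threshold. Spi1, which encodes the myeloid regulator PU.1, had log2 fold changes of -0.46 (SE 0.18), -0.98 (SE 0.44) and -2.17 (SE 0.48), of which the knockout value was -0.45 (SE 0.20) without IL-38 KO + IgG replicate 4, and Prtn3, proteinase 3, of 0.60 (SE 0.45), 1.01 (SE 0.37) and -1.80 (SE 0.45). Cebpb was higher in KO than in WT tumors (158 to 194 against 108 to 149 CPM, log2 fold change 0.46, SE 0.14, limma adjusted p = 0.266) and Cebpa lower (log2 fold change -0.45, SE 0.15, limma adjusted p = 0.290). Without IL-38 KO + IgG replicate 4, 2 of 5 (Spi1 and Prtn3) were called lower in the libraries with the blockade, as 4.85% of all genes were, with the same confounding. In replicate 4 itself Spi1 stood at 202 normalized counts, within the 86.3 to 207 of the blockade. Prtn3 stood at 106 there, above the 9.05 to 36.3 of the blockade.

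Chemokines and growth factors that draw or sustain neutrophils showed no common side. Of 19 listed, 14, 14 and 12 were tested, with medians of 0.11, -0.32 and 0.03 and 0 past the limma threshold. Il17a had reads in 1 of 23 libraries and Csf2 in none. Cxcl15, the mouse chemokine lungkine, was at 1.58 to 48.9 CPM with anti-IL-38 and 0 to 2.96 CPM with IgG (log2 fold change 4.06, SE 1.06, limma adjusted p = 0.376), while Ppbp, the platelet basic protein that gives rise to neutrophil-activating peptide, was lower (-0.86, SE 0.35). In KO tumors Il1a (-1.56, SE 0.52), Cxcl15 and Ppbp (-1.12, SE 0.47) had the smallest p among the lower genes of this list. Cxcl15 thus lay below WT in KO tumors (-0.94, SE 0.41, without IL-38 KO + IgG replicate 4), whereas it was higher with anti-IL-38. Under the blockade Il1b, an inflammatory cytokine that myeloid cells make, was at 38.8 to 80.5 CPM, against 40.1 CPM in IL-38 KO + IgG replicate 4 and 4.596 to 13.9 CPM in the other 3 controls (log2 fold change 2.27, SE 0.56, limma adjusted p = 0.0657). It was thus highest in the same 5 libraries in which Mmp8 was lowest. Without replicate 4, 1 of 13 genes of this list was called higher and 2 lower, against 9.45% and 4.85% of all genes.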

How the data were processed

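RNA of PyMT tumors was measured by QuantSeq 3′ mRNA sequencing in 23 libraries, whose groups and replicate numbers come from the labels. Reads were processed by the authors on the BlueBee platform with its QuantSeq pipeline; the submitters' processing notes name STAR, HTSeq, DESeq2 and the build GRCm39. The deposited values are a signal in the form of normalized counts, in 1 table of 19 and 1 of 8 libraries, each normalized separately by the authors with 1 size factor per library. The 4 IL-38 KO + IgG libraries stand in both with the same reads. Tests stayed within a table; levels across tables were compared as CPM.

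Dividing by the value of 1 read per library gave whole numbers for 100% of values, within a tolerance of 0.0001%; in WT + IgG replicate 1 that value was 0.996, too close to 1 to tell reads from rounding. Of 47643 identifiers, 47224 had a symbol in GENCODE M21. The main test was limma 3.58.1 (R 4.3.3, trended eBayes, two-sided), applied to log2(normalized count + 1) wherever a gene's mean over the libraries compared reached 5 normalized counts, and p-values were adjusted by Benjamini-Hochberg and called under 0.05. It gave all adjusted p-values of genes unless another tool is named. Fold changes on this scale understate those of low genes.

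As alternatives, the pseudocount was set to 0.5 or 5, the minimum mean was dropped or raised to 20, values were scaled by TMM or quantiles, recovered reads were fitted with edgeR 4.0.16 or DESeq2 1.42.0, a replicate block or an experiment effect was added, and libraries were dropped one by one. Fits were tested on simulated counts in which, apart from depth and the genes changed on purpose, all libraries shared the same mean levels. How the fits behave where libraries stand apart was not tested. Intervals of reads without molecular identifiers cover counting error only. No pair of libraries was a duplicate (lowest chi-square per degree of freedom 15.9). The labels give each library a replicate number and an identifier of its own. They do not say that each is a separate animal, so p-values measure the spread between libraries. All columns were used.

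The genes named are the 10 members, and from each companion list up to 3 genes per direction and comparison with the smallest limma p; Ly6g, Cxcr2, Mpo, Elane, Epcam, Csf1r, Il17a and Csf2 were picked after values were seen. The members, lists and tests were chosen with earlier results of these data known.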

Additional observations from a re-analysis of the deposited data

Results flagged for a closer look

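In 50 groups of libraries (10 genes in 5 groups) the highest or lowest CPM was set against Dixon's 95% limit, which chance passes in about 1 group in 20, and 4 passed. Camp was at 1.44 CPM in anti-IL-38 replicate 2, far above the other 5 libraries of its group. Mmp9 was at 16.9 CPM in WT + IgG replicate 2, against 7.73 to 8.35 CPM in the other 3. Ngp was at 0.319 CPM (2 reads) in IL-38 KO + anti-γδTCR replicate 3 and at 0 reads in the other 3. Mmp8 was at 5.57 CPM (49 reads) in IL-38 KO + anti-γδTCR replicate 4 and at 0 reads in the other 3. With the other 3 at 0, any value above 0 passes, so the flags of Ngp and Mmp8 were fixed in advance. The rate of 1 in 20 does not hold for them. The 2 reads of Ngp also lie under the 3 reads taken as the upper limit for a count of 0. The S100a8 level of 162 CPM in IgG replicate 5 did not pass this limit. No member differed between the antibody and the knockout effect past the limma threshold.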

How the results depend on the processing

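Of 1018 member fold changes refitted under an alternative, 954 kept their direction and their side of the threshold, 5 passed it newly, 0 were lost and 59 changed sign. The 5 were S100a8 (anti-IL-38) with DESeq2, and Mmp8 and C5ar1 (blockade) with DESeq2 and without IL-38 KO + IgG replicate 4. Counts of genes past the threshold depended on the test. With DESeq2 they were 75 (1 member) for the antibody, 305 for the knockout, 1033 (2 members) for the blockade and 70 for the pooled comparison; with edgeR they were 0 for the knockout and 1 for the pooled comparison, as with the experiment as a term (1). With the replicate number as a block they were 1 for the antibody and 0 for the knockout, and the block changed no member's call. Same-numbered libraries did not deviate together (r from -0.169 to 0.0746), so the numbers pair nothing. Leaving out 1 library gave 0 to 6 genes for the antibody (6 without IgG replicate 3), 0 to 7 for the knockout (7 without WT + IgG replicate 3 or IL-38 KO + IgG replicate 4, 4 without IL-38 KO + IgG replicate 1), 0 to 2357 for the blockade (0 to 2 members) and 0 to 23 for the pooled comparison (23 without IgG replicate 3). Without IL-38 KO + IgG replicate 4, edgeR called 2379 and DESeq2 2875 genes under the blockade, each with 2 members. The cause of these shifts was not tested.

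Sign changes were as follows. Under anti-IL-38 they came with Retnlg at a pseudocount of 0.5 (0.0), Csf3r with TMM (0.01) and Camp with edgeR and DESeq2 (0.01 each); in the pooled comparison Csf3r with quantile normalization (-0.01); and in the antibody effect minus the knockout effect Retnlg at a pseudocount of 5 (-0.11). Leaving out 1 library gave ranges of -0.18 to 0.25 (Csf3r), -0.77 to 0.41 (Retnlg) and -0.32 to 0.17 (Camp) for the antibody, of -0.39 to 0.0 (S100a8), -0.12 to 0.36 (Csf3r), -0.03 to 0.26 (Ltf) and -0.43 to 0.99 (Ngp) for the knockout, and of -1.13 to 0.06 (S100a9) and -0.43 to 0.03 (Mmp9) for the blockade. They were -0.04 to 0.19 (Csf3r), -0.38 to 0.09 (Retnlg) and -0.44 to 0.19 (Ngp) for the pooled comparison, and -0.23 to 0.47 (S100a9), -0.37 to 0.12 (Csf3r), -0.49 to 0.58 (Retnlg), -0.1 to 1.62 (Mmp8), -0.03 to 0.36 (Mmp9) and -0.19 to 0.12 (C5ar1) for the difference of effects. Correlations that changed sign were Camp with Ngp (-0.0516 in the neutralization experiment, -0.337 without the 2 farthest libraries), Ltf with Ngp (0.0335 and 0.217), Csf3r with C5ar1 (-0.141 and -0.0764) and Ltf with Lcn2 (-0.101 without the 2 farthest). Depth limits Retnlg, Camp, Ngp and Csf3r most, with at most 42 reads in any library.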

Other observations

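Taken one at a time, and picked after their values were seen, the members had different nearest genes by Pearson's r over the 19 libraries with group means removed. For Mmp8 these were Il7r (0.999), Gpnmb (0.999), Mmp12 (0.998), Atp6v0d2 (0.998) and Ccl6 (0.997). Without IL-38 KO + IgG replicate 4 the 5 nearest to Mmp8 were Il7r (0.988), Clec7a (0.987), Cybb (0.986), Gpnmb (0.985) and Wfdc17 (0.985). For Ltf the genes near it over 19 libraries included Serpinb5 (0.898), Fgf2 (0.892), Adamts1 (0.884) and Cntn2 (0.881), of which Serpinb5 (0.912) and Fgf2 (0.897) stayed among the 5 nearest without that library, and Serpinb5 is known from epithelium. For S100a8 the nearest was Prkar1a (0.888) and for C5ar1 Vapb (0.901). These values are descriptions of 19 libraries and were not tested.

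Other marker lists give the surroundings of the 10 genes. In the comparison of anti-IL-38 with IgG, the medians of the log2 fold changes were -0.71 over 2 eosinophil genes, 0.55 over 4 mast cell, 0.06 over 6 monocyte, -0.21 over 8 macrophage, 0.87 over 6 T cell, -0.11 over 2 B cell, 0.46 over 5 erythroid, -0.22 over 7 milk, 0.28 over 6 keratinocyte, 0.47 over 5 fibroblast, 0.14 over 5 endothelial and -0.03 over 2 γδ T-cell genes, with 0 genes past the limma threshold. In IL-38 KO against WT tumors the 8 macrophage genes were all lower (median -0.57, or -0.22 without IL-38 KO + IgG replicate 4, with 0 past the threshold either way). Their summed level was 873 CPM in that library, 1635 to 2199 CPM in the other 3 KO libraries and 2024 to 2638 CPM in WT + IgG. In the comparison of the blockade, 0 macrophage and 0 monocyte genes passed limma with all 8 libraries (6 and 3 had an unadjusted p under 0.05), and 5 of 8 and 2 of 6 were called lower without IL-38 KO + IgG replicate 4, as 4.85% of all genes were. Chil3 is among these monocyte genes and also among the further neutrophil genes called lower in that fit.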
